A study of Mus musculus with 2 samples.

Results

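The 6 mouse Iroquois genes, Irx1 to Irx6, were described for trimethylation of lysine 27 of histone H3 (H3K27me3) in embryonic stem cells. They were taken by name from the 21755 protein-coding genes of the annotation and stand in 2 clusters of 3 genes, Irx1-Irx2-Irx4 on chromosome 13 and Irx3-Irx5-Irx6 on chromosome 8. ChIP-seq against the mark was done on E14TG2a.4, a male line of embryonic stem cells from strain 129/Ola with an age of 3.5 days (embryonic) in the labels. A single group was measured, with no second condition and no treatment named in the labels, in 2 samples that the labels number as biological replicates 1 and 2 of this 1 line. The design therefore asks where at these genes the mark lies and whether both replicates find it there, and no test between conditions exists. With 2 replicates each value is given for both.

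Iroquois genes encode homeodomain transcription factors of the TALE class, in which a short extra loop stands in the homeodomain. They pattern the neural tube, heart, limb, lung and retina, and their clusters hold long stretches with no protein-coding gene, which are known to carry enhancers. H3K27me3 is laid down by Polycomb repressive complex 2, usually over CpG-rich starts of developmental regulators that embryonic stem cells keep silent.

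A start below is the annotated 5′ end of a gene, and a gene counts as marked if both replicates have a peak that reaches, by at least 1 bp, into the window of 1 kb either side of its start. Common bases are those in a peak of both replicates. Signal is the authors' own value for each peak, with a scaling the sources used here do not give, and it serves mainly to describe and rank peaks within a list. Averages over bins, likeness between genes and differences between replicates also use it. The last of these set values of both lists side by side although their scaling is unknown. The list of replicate 2 holds 98582 peaks over 58.4 Mb and that of replicate 1 holds 63651 over 53.6 Mb. Of the replicate 2 peaks 53.7% met one of replicate 1, and 73.6% the other way. Coverage in bases was therefore preferred to counts of peaks.

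Sequences at 6 places are shown as examples. They are upstream stretches almost wholly outside the peaks (Irx2 and Crnde), upstream stretches inside them (Irx4 and D730050B12Rik), and summits poor in CpG. The summits shown are not typical: over the members the ratio of observed to expected CpG at the summit had a median of 0.426 and reached 0.703. Capitals mark CpG dinucleotides. The upstream stretches are from the RefSeq promoter table of build GRCm38.p6, which matched 3 of the 6 members (Irx2, Irx3 and Irx4), and the summits are 300 bases of the same build around the highest point of the strongest peak. None of them overlaps an annotated GENCODE exon.
Irx2 upstream, chr13:72628570-72628819 (+): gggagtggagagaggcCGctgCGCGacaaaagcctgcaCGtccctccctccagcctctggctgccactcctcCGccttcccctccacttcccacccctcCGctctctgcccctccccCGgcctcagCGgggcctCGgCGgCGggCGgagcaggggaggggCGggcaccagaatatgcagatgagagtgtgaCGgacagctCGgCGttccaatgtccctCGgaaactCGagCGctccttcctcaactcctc
Crnde upstream, chr8:92356121-92356370 (-): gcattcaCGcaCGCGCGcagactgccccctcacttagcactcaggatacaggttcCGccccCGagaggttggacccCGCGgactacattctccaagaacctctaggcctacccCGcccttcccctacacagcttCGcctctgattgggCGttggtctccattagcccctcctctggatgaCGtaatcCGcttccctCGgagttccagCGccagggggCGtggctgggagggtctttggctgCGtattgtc
Irx4 upstream, chr13:73260247-73260478 (+): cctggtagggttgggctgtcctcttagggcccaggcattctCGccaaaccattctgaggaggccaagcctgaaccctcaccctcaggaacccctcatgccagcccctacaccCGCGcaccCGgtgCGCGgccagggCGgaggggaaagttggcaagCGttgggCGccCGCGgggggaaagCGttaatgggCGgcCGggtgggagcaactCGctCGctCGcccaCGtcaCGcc
D730050B12Rik upstream, chr13:72816764-72817013 (-): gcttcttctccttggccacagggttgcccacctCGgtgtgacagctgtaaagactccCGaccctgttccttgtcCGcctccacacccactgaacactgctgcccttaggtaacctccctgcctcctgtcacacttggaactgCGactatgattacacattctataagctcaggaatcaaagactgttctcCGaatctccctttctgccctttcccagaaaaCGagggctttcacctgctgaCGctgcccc
Irx4 summit, chr13:73262386-73262685 (+): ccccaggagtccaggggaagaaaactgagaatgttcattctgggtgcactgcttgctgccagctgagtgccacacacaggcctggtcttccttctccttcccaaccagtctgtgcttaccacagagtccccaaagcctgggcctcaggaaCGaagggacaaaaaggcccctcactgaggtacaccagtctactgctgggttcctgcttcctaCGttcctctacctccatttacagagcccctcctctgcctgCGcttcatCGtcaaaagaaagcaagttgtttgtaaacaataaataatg
Gene-free summit, chr8:92461592-92461891 (+): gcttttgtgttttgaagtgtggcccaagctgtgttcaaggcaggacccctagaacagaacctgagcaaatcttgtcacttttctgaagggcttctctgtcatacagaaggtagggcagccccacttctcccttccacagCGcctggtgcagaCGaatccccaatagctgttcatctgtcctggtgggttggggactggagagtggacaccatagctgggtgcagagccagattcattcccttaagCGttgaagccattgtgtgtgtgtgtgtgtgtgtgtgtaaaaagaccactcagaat

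The Irx2 stretch had 19 CpG and a ratio of observed to expected CpG of 0.666, and only 14 of its 250 bases lay in a peak of replicate 1 and 0 in a peak of replicate 2. The Crnde stretch, next to Irx5, had 17 CpG and a ratio of 0.726, with 1 base in a peak of replicate 1 and 0 in replicate 2. As many CpG as in the Irx2 stretch stood in the same 250 bases of 19.7% of the 32851 promoters in the table, and as many as in the Crnde stretch in 23.5%. Other CpG-rich sequence lay inside peaks: the 232 bases upstream of Irx4, with 19 CpG and a ratio of 0.706, were covered throughout in both replicates. The 2 stretches outside peaks are examples, and the coverage of CpG islands near the genes is given below. The 2 summits were CpG-poor and fully covered, with 4 CpG and a ratio of 0.201 in the Irx4 intron and with 3 CpG and a ratio of 0.155 in the gene-free domain. The start of the non-coding gene D730050B12Rik had 7 CpG, a number reached by 46.3% of promoters, and 250 and 247 of its 250 bases lay in peaks of replicates 1 and 2.

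Every Iroquois gene was marked. The count was 6 of 6, against 26.1% of all protein-coding genes, and all 6 also had at least 50% of the 1 kb window covered in each replicate, against 14% of all protein-coding genes. Within 5 kb of the start 6 of 6 had a peak in both replicates, against 33.9%. Common bases filled a median of 8590 bp of the 10001 bp window at the 6 genes (4958 to 8925 bp), against a median of 2937 bp at the 5679 marked genes as a whole and 0 bp at all protein-coding genes. The mark thus reached farther at each of the 6 genes than at the median marked gene. The rule that names the 6 genes uses no measured value, but they were proposed with earlier results of these data known, neighbours within a cluster are not independent, and no test of the difference was made.

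**Figure D1:**
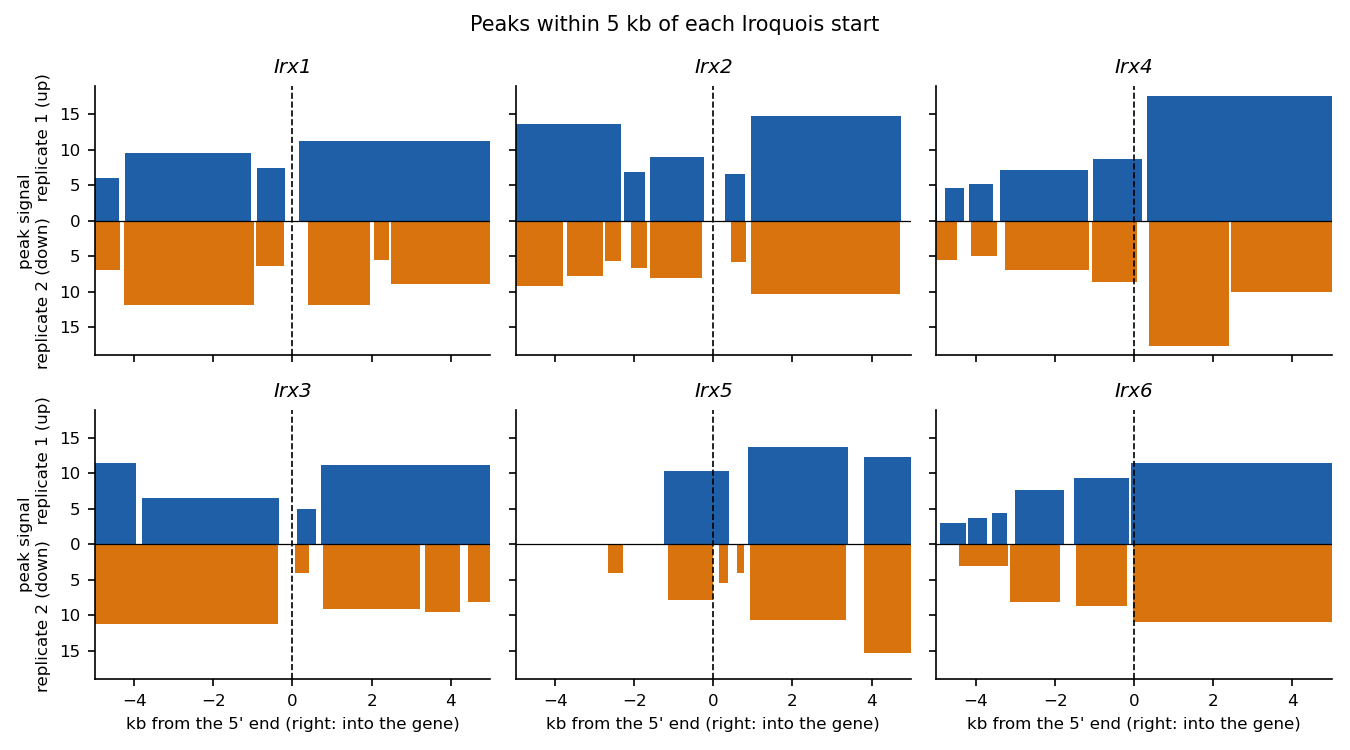
Peaks within 5 kb of the start of each Iroquois gene, drawn as blocks whose height is the authors' signal value, with replicate 1 upward and replicate 2 downward. The horizontal axis is the distance from the start in kb, with the gene body to the right. Blocks fill most of each window except upstream of Irx5, and a short peak-free stretch lies at or next to each start.

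The plot of peaks around each start shows the shape that the 6 genes share, which is taken up next for each cluster in the order of the genes along the chromosome.

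Irx1, which in the mouse is expressed in the developing lung, limb and brain, lies on the minus strand at chr13:71957921-71963723. Peaks covered 1513 bp of the 2001 bp around its start in replicate 1 and 1333 bp in replicate 2, and 9324 and 9071 bp of the 10001 bp window. The mark was spread evenly to both sides, with 4498 and 4628 bp upstream and 4826 and 4443 bp downstream. It had the most common bases of the 6 genes within 5 kb, 8925 bp, and 99.3% of all protein-coding genes had fewer. The highest signal within 1 kb was 11.2 in replicate 1, above 96.8% of the peaks of that list, and 11.9 in replicate 2, above 98.5%.

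Irx2, next along the chromosome at chr13:72628820-72634198 on the plus strand, is expressed in many of the same tissues as Irx1. Its start had 1329 and 1128 bp covered within 1 kb, the fewest of the 6 genes in each replicate, and 8903 and 8372 bp within 5 kb. The low value close to the start and the high value in the wide window go together with the peak-free stretch described below. The replicates differed most here in signal, at 14.8 in replicate 1 (above 99.6% of peaks) and 10.4 in replicate 2 (above 96.9%).

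Irx4, at chr13:73260479-73269608 on the plus strand, is known for its expression in the ventricular muscle of the heart. Peaks covered 1871 and 1687 bp within 1 kb of its start and 9245 and 9008 bp within 5 kb. It carried the highest signal of the family in both replicates, 17.5 in replicate 1 and 17.6 in replicate 2. Both values came from a peak that begins inside the gene, 320 bp past the start in replicate 1 and 378 bp past it in replicate 2, and the summit shown above belongs to the peak of replicate 2.

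Irx3, at chr8:91798525-91802067 on the minus strand, sets a progenitor border in the neural tube and acts in limb and heart development. It had 1419 and 1233 bp covered within 1 kb and 9270 and 8894 bp within 5 kb. Coverage was again much the same on both sides, with 4501 and 4645 bp upstream and 4769 and 4249 bp downstream. The highest signal within 1 kb was 11.2 in replicate 1 and 11.3 in replicate 2, close to the values at Irx1.

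Irx5, at chr8:92357625-92376286 on the plus strand, acts in the retina and in cardiac repolarisation, where in the mouse it represses the potassium channel gene Kcnd2. It stood apart from the other 5 genes in both replicates. Within 1 kb its values were like theirs, at 1499 and 1466 bp, but within 5 kb only 5338 and 5510 bp were covered, below every value of the other members. The missing part was upstream. Only 1255 and 1498 bp of the upstream 5 kb lay in peaks, against 4082 and 4012 bp downstream, and the start of Crnde, a non-coding gene transcribed away from Irx5, lies in that upstream part. Signal was not low, at 13.7 in replicate 1 and 10.7 in replicate 2 within 1 kb, and at 15.3 in a peak of replicate 2 that begins 3817 bp past the start.

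Irx6, at chr8:92674288-92680956 on the plus strand, is known for its role in bipolar cells of the retina. Its start had the most covered bases within 1 kb, 1935 and 1855 bp, and 9229 and 8814 bp lay in peaks within 5 kb. The downstream 5 kb was covered completely in both replicates, 5000 bp each, by a single peak of 6736 bp in replicate 1 and of 6669 bp in replicate 2. Upstream the peaks were smaller and grew toward the gene, with signal of 3.07 for the outermost peak and 9.32 for the innermost in replicate 1, and 3.01 and 8.68 in replicate 2. The highest signal, in the long peak over the gene, was 11.5 in replicate 1 and 11.0 in replicate 2.

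In order of common bases within 5 kb the genes ran Irx1, Irx3, Irx4, Irx6, Irx2 and Irx5, from 8925 to 4958 bp. The ranges over the replicates overlapped among Irx1 (9071 to 9324 bp), Irx3 (8894 to 9270 bp), Irx4 (9008 to 9245 bp) and Irx6 (8814 to 9229 bp). Within each replicate Irx1 had the most covered bases of these 4 and Irx6 the fewest, while Irx3 and Irx4 changed places. With 2 replicates this order was not tested. Irx2 (8372 to 8903 bp) lay below the ranges of Irx1 and Irx4 and overlapped those of Irx3 and Irx6. Within each replicate it had fewer covered bases than any of these 4. Irx5 (5338 to 5510 bp) lay below all of them. Among the 5679 marked genes, 75.8% had fewer common bases than Irx5 and 95.2% to 97.1% fewer than each of the other members.

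Gene bodies were covered over most of their length. Common bases took up 99.6% of the body of Irx6, 92.7% of Irx4, 88.2% of Irx1, 83.5% of Irx3, 83.1% of Irx2 and 61.1% of Irx5, with a median of 85.9% against 7.35% over the marked genes. At least 60% of the body, a bound set with these values known, was in common bases at 6 of 6 members and at 3.68% of all protein-coding genes. The replicates ranked the bodies alike at both ends: Irx6 was highest at 99.9% and 99.6%, and Irx5 lowest at 68.2% and 66.3%. Irx5 is also the longest of the 6 genes, at 18662 bp against 3543 to 9130 bp, and its domain ended at position 92373328 of chromosome 8, short of the 3′ end. The body percentages compare genes of unequal length, and a long gene reaches farther from its start.

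**Figure D2:**
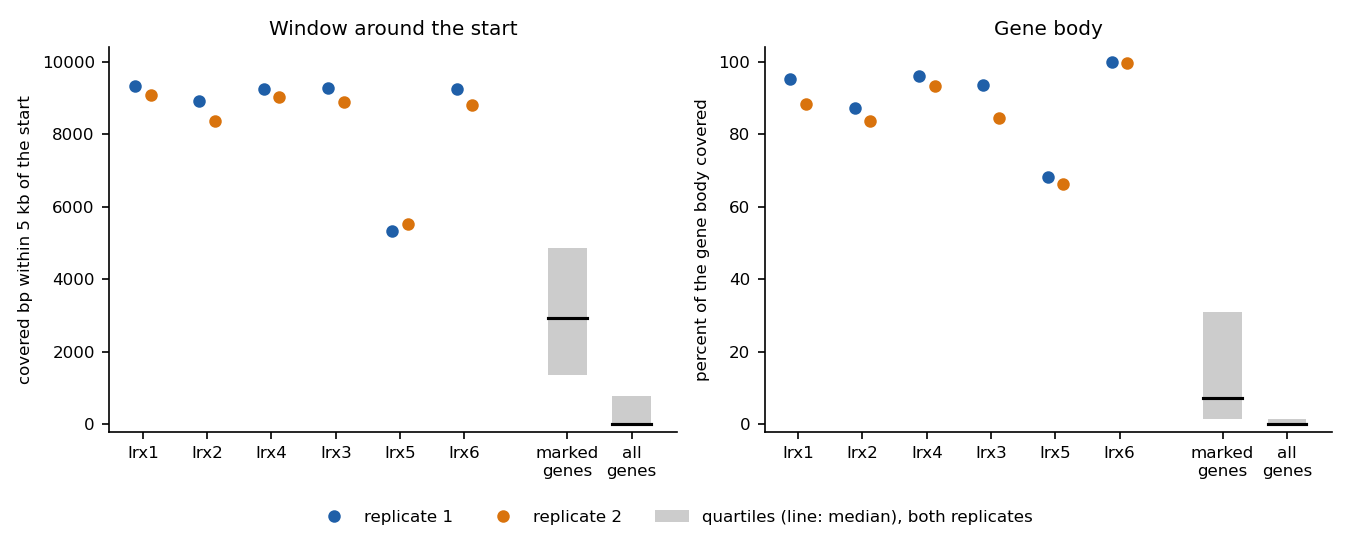
Covered bases within 5 kb of each Iroquois start (left) and percent of each gene body covered (right), with 1 point per replicate, beside grey bars from the lower to the upper quartile of the common bases of marked genes and of all protein-coding genes, with a line at the median. All members except Irx5 sit at 8372 bp or more in both replicates, and the marked genes as a whole have a median of 2937 bp.

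At the starts themselves the mark was often interrupted. In the plot of peaks around each start, the base at the start lay in no peak of either replicate at Irx1, Irx2 and Irx3, which is 3 of 6 members, against 48.9% of the marked genes, so the interruption as such is common among them. The peak-free stretch was 374 and 614 bp long at Irx1, 522 and 745 bp at Irx2, and 458 and 431 bp at Irx3. At Irx1 it reached from position -199 to 174 relative to the start in replicate 1 and from -215 to 398 in replicate 2. At Irx4 the start lay in a peak in both replicates, and the stretch, 130 and 314 bp long, began 190 and 64 bp into the gene. At Irx6 the stretch was short, 66 and 146 bp, and lay just upstream of the start.

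Irx5 was the only member at which the peak-free stretches nearest the start did not overlap between the replicates. In replicate 1 the start lay in a peak and the nearest peak-free stretch, 502 bp long, ran from 386 to 887 bp into the gene. In replicate 2 a stretch of 162 bp contained the start, followed by peaks of only 207 and 187 bp. The first of these lies inside the larger peak that replicate 1 has over the start, and the other inside the stretch where replicate 1 has none. The rest of that 502 bp stretch had no peak in replicate 2 either, so most of it was peak-free in both replicates.

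The interruptions fell in sequence rich in G and C, and at every member except Irx6 also in CpG. Over the 12 stretches, 1 per gene and replicate, the CpG ratio ran from 0.399 to 0.973 with a median of 0.921, and the share of G and C from 64.7% to 82.3%. In the 300 bases around the summit of the strongest peak with its summit within 5 kb, the ratio ran from 0.0453 to 0.703 with a median of 0.426, and the share of G and C from 45.3% to 65.0%. The stretch had the higher ratio in 10 of 12 pairs, and both exceptions were Irx6, at 0.439 against 0.494 in replicate 1 and 0.399 against 0.433 in replicate 2. The Irx6 stretches held only 2 and 4 CpG. Each stretch was chosen as the one nearest the start, where the CpG ratio of the members was 0.617 to 0.917, while a summit could lie up to 5 kb away. The pairs therefore cannot separate lack of a peak from nearness to the start. Stretches of the 2 replicates overlap at most genes and are not independent, and other marked genes were not measured in this way. How well reads from such GC-rich sequence were recovered was not tested.

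**Figure D3:**
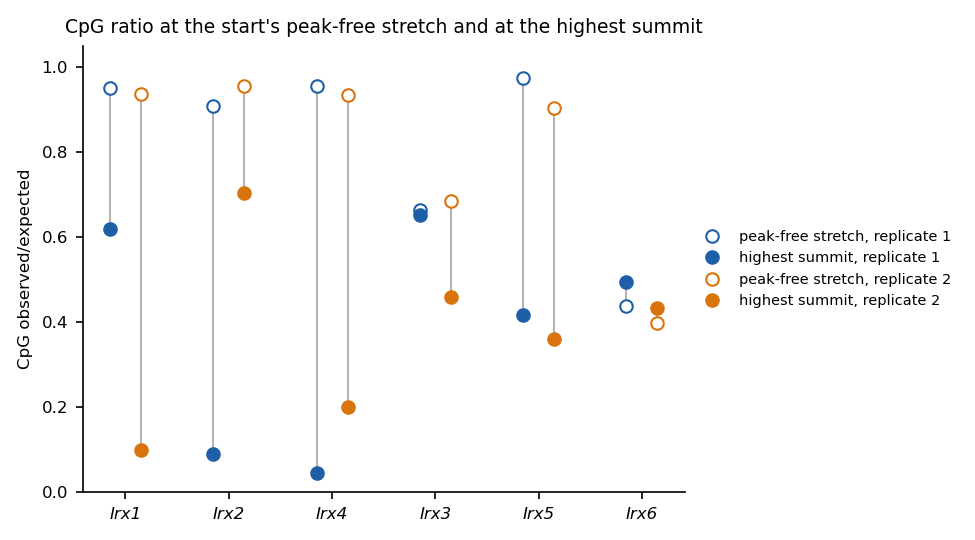
Ratio of observed to expected CpG in the peak-free stretch at each Iroquois start (open circles) and in the 300 bases around the summit of the strongest peak within 5 kb (filled circles), joined by a line for each gene and replicate. The open circle is the higher of the pair at every gene except Irx6, with a median of 0.921 for the stretches and 0.426 for the summits.

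In the window of 500 bp either side of the start, the CpG ratio was 0.917 at Irx2, 0.898 at Irx1, 0.810 at Irx4, 0.755 at Irx5, 0.643 at Irx3 and 0.617 at Irx6. All 6 values were above the median of all protein-coding genes, 0.558, but Irx6 lay below the median of the marked genes, 0.634, and Irx3 just above it. The 3 genes of the Irx1-Irx2-Irx4 cluster had the 3 highest ratios, and the covered bases did not follow that order.

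Averaged over the 6 genes, signal was lowest upstream and at the start and highest in the gene. It was 12.5 in replicate 1 and 10.1 in replicate 2 over the bins from 0.5 to 5 kb downstream, against 3.88 and 3.72 at the marked genes. Upstream it was 6.65 and 6.80 at the members and 2.47 and 2.40 at the marked genes, and within 0.5 kb of the start it was 6.83 and 4.78 at the members and 4.70 and 4.37 at the marked genes. Members and marked genes thus came closest at the start and were farthest apart inside the gene. In these means each peak gives its single value to every base it covers, and bases without a peak count as 0. Height and width of peaks are therefore mixed, and the means are not enrichment by position.

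The gene outside the family whose signal around the start was most like that of each member was also found, by the mean absolute difference over 40 values (20 bins of 500 bp in each of 2 replicates) among 21749 genes. These genes were Adgrb2 for Irx1 (a mean difference of 1.85), Hoxa4 for Irx2 (2.46), Lrrc10b for Irx4 (2.48), Hoxc13 for Irx3 (2.03), Kcnk10 for Irx5 (1.83) and Wnt7a for Irx6 (1.21). For scale, the replicates of the member itself differed by a mean of 2.18 at Irx1, 3.71 at Irx2, 2.61 at Irx4, 3.18 at Irx3, 1.97 at Irx5 and 0.815 at Irx6. Within the family Irx1 and Irx3 were the closest pair, at 2.06, with 2 genes closer to Irx1 and 1 closer to Irx3. Irx5 had the largest difference from its nearest member, Irx6 at 3.39, and 320 genes were closer to it. Other members came near that value. Irx6 stood at 3.11 from Irx4, with 261 genes closer to Irx6 and 22 closer to Irx4. Irx2 stood at 3.19 from Irx3, with 9 genes closer to Irx2.

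Each member sat in a long domain of the mark, where a domain joins common bases that lie within 3 kb of each other. The domain was 22.5 kb long at Irx2, 21.9 kb at Irx4, 18.2 kb at Irx1, 16.8 kb at Irx5, 15.2 kb at Irx3 and 11.1 kb at Irx6. All 6 member domains were at least 10 kb long, against 8.05% of the 16987 domains of the genome, whose median length was 1521 bp. The 8.05% counts domains anywhere in the genome, and those at the starts of other marked genes were not compared separately. In rank by length they ran from 290 (Irx2) to 1158 (Irx6). The 3 domains of the Irx1-Irx2-Irx4 cluster were longer than the 3 of the other cluster, without a test of that order.

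**Figure D4:**
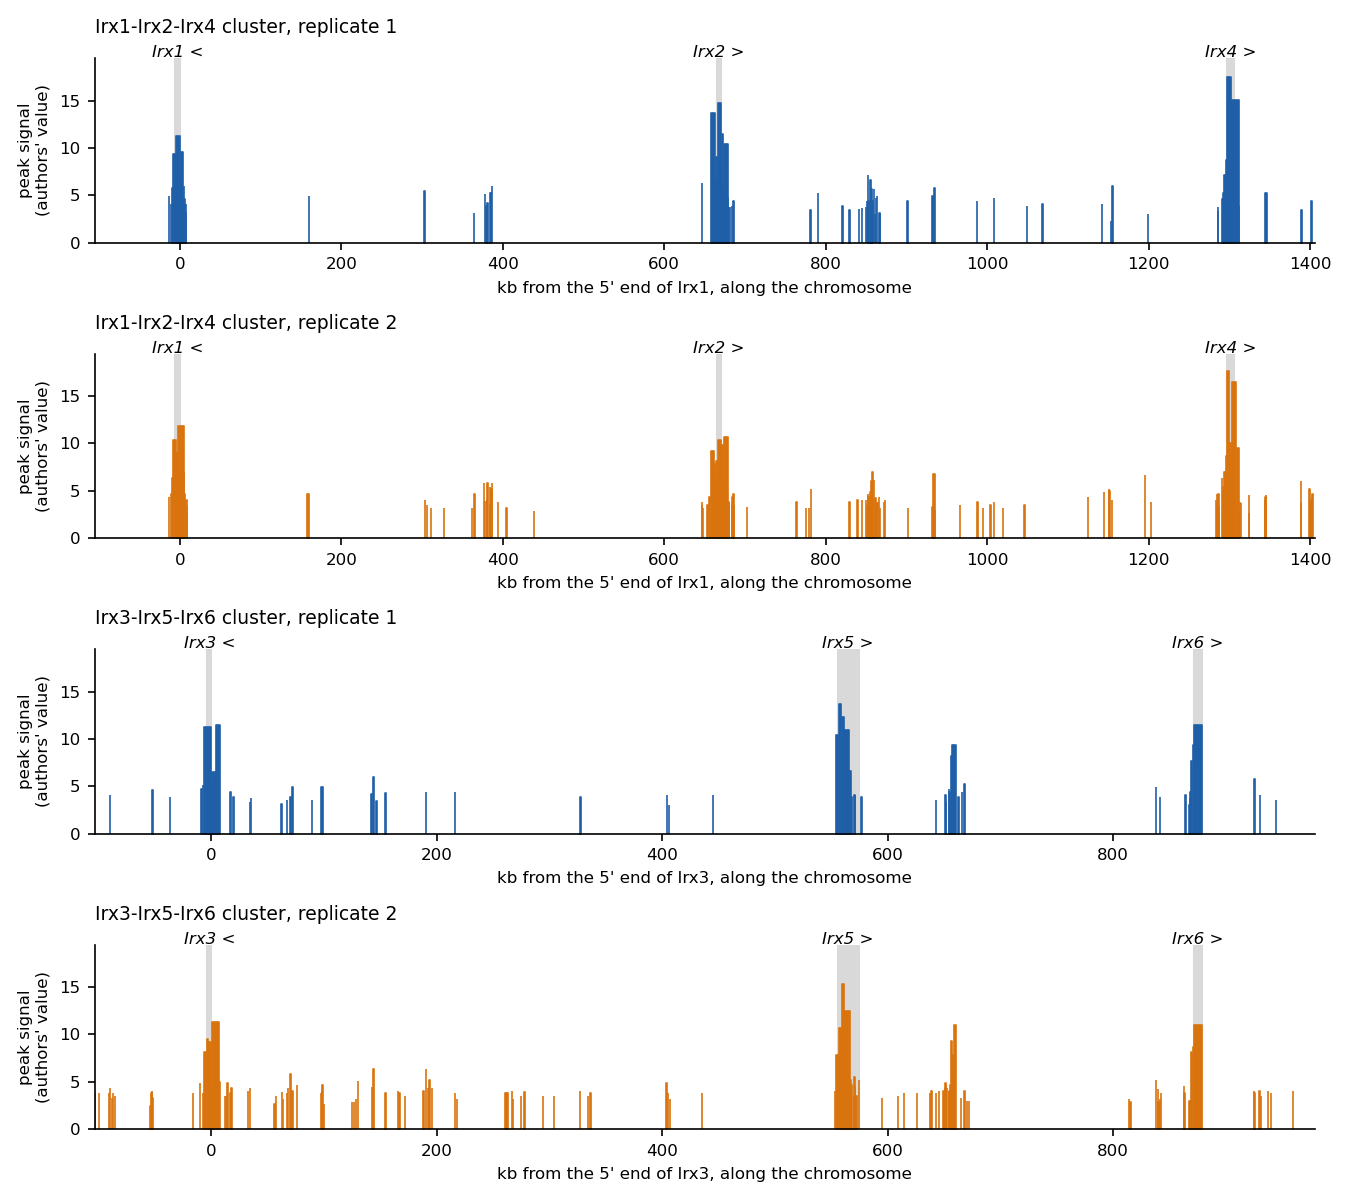
Peaks of each replicate over both Iroquois clusters and 100 kb beyond them, by distance in kb from the start of Irx1 (upper pair of panels) or Irx3 (lower pair), with height as the authors' signal value; grey bands are the member genes, arrows show their strand, and a minimum line width makes narrow peaks look wider than they are. Groups of tall peaks stand at all 6 genes in both replicates, a further group beyond Irx5 reaches 9.40 and 11.0, and replicate 2 has more low peaks between them.

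The map of the clusters shows that the domains do not join into a continuous block. Between its outermost gene ends the Irx1-Irx2-Irx4 cluster spans 1312 kb (chr13:71957921-73269608), of which peaks covered 5.56% in replicate 1 and 6.14% in replicate 2, with 4.54% in common. The Irx3-Irx5-Irx6 cluster spans 882.4 kb (chr8:91798525-92680956), of which 6.48% and 7.48% was covered, with 5.07% in common. Both stood above the genome as a whole, of which 2.10% and 2.28% was covered and 1.53% in common.

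The 4 deserts between neighbouring members held no protein-coding gene. Peaks covered 2.89% and 3.66% of the 665.1 kb between Irx1 and Irx2, and 5.54% and 6.07% of the 626.3 kb between Irx2 and Irx4. On chromosome 8 they covered 3.54% and 4.80% of the 555.6 kb between Irx3 and Irx5, and 4.96% and 5.83% of the 298.0 kb between Irx5 and Irx6. In common bases the deserts had 2.42%, 4.07%, 2.44% and 3.41% in that order. Of the 2710 stretches of at least 100 kb between protein-coding genes, 87.2%, 92.8%, 87.6% and 91.2% had less, and the median stretch had 0.100% with quartiles of 0 and 0.899%.

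Coverage was densest next to the genes. In the deserts of the Irx1-Irx2-Irx4 cluster, 71.1% of the bases within 10 kb of a member's body were in peaks of replicate 1 and 71.0% in replicate 2, against 1.81% and 3.41% from 10 to 50 kb, 0.137% and 0.245% from 50 to 100 kb, and 2.51% and 3.15% farther away. The other cluster had 34.2% and 34.1% within 10 kb, 1.54% and 2.80% from 10 to 50 kb, 6.21% and 7.70% from 50 to 100 kb, and 1.30% and 2.31% farther away. The gene-free domain described below lies in the range of 50 to 100 kb on chromosome 8. The stretch with no peak in either replicate reached 207.5 kb between Irx1 and Irx2 and 142.0 kb between Irx5 and Irx6.

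**Figure D5:**
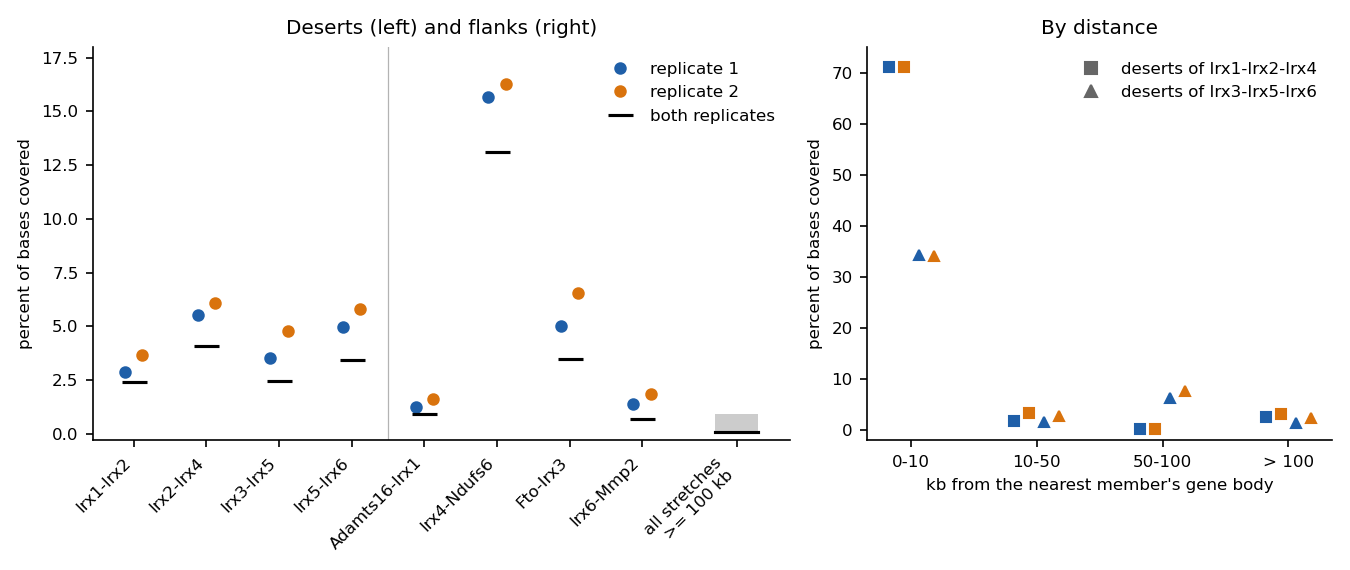
Percent of bases covered in the 4 deserts and the 4 flanks of the Iroquois clusters (left), with points for each replicate, black bars for common bases and a grey box for the quartiles of all stretches of at least 100 kb, and the same percent in the deserts by distance from the nearest member (right). Coverage is highest within 10 kb of the genes, at 71.1% and 71.0% on chromosome 13 and 34.2% and 34.1% on chromosome 8.

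Outside the clusters the coverage differed from flank to flank. Common bases took up 13.1% of the 50.2 kb from Irx4 to Ndufs6 and 3.50% of the 130.1 kb from Irx3 to Fto, but 0.924% of the 1116 kb from Adamts16 to Irx1 and 0.682% of the 146.3 kb from Irx6 to Mmp2. The flank next to Irx4 is short and holds the end of that gene's domain, which runs to position 73276202.

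Within the clusters 7 further domains of at least 2 kb lay away from the members. The longest on chromosome 13, 13.2 kb at chr13:72813790-72826953, contains the start of D730050B12Rik, a long intergenic non-coding RNA gene whose upstream sequence is shown above. Its highest signal was 7.12 in replicate 1 and 7.02 in replicate 2, lower than at any member in either replicate. The longest on chromosome 8, 10.1 kb at chr8:92452842-92462926, contains no annotated gene start, holds 1 CpG island and lies 76.6 kb beyond Irx5 on the side of Irx6. Its highest signal was 9.40 in replicate 1 and 11.0 in replicate 2, and the value of replicate 2 equals the highest at Irx6 in that replicate. The other 5 were between 2.05 and 6.11 kb long, and the longest of them, in the desert between Irx1 and Irx2, holds the start of the pseudogene Gm4052.

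CpG islands near the genes were overlapped without exception. A scan of the genome sequence gave 28 islands in the clusters and 20 kb around them, and common bases overlapped 22 of the 22 within 5 kb of a member and 2 of the 6 farther away, against 32.4% of the 21348 islands of the genome. Of those 2, the island at chr13:72639529-72640037 lies 5.33 kb from Irx2 and inside its domain, and the island at chr8:92459926-92461423 is the one in the gene-free domain. The 4 without a peak lie 71.9 to 236.4 kb from a member. The nearest island to the Crnde start, at chr8:92355407-92356893, was the least covered of those near a member, at 524 and 411 bp of its 1487 bp.

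Non-coding genes that start close to a member were marked with it. All 3 whose start lies within 5 kb of a member's start were marked, against 13.6% of long non-coding genes, and these windows overlap those of the members. Gm20554 starts 256 bp from Irx2 on the other strand, and 1479 and 1256 bp of its window and 92.4% and 84.0% of its body were covered. Irx3os, an antisense gene that overlaps Irx3, had 1923 and 1887 bp and 89.7% and 89.2%. Crnde, which starts 1505 bp from Irx5 on the other strand, had only 751 and 852 bp, on its Irx5 side, and 0% and 1.21% of its body. Of the 24 other non-coding genes in and around the clusters 6 were marked. These 24 include pseudogenes and a small nuclear RNA gene, which the 13.6% does not count, and no share for such a mix was computed. Among the 6, Gm40999 and Gm48000 start inside the domains of the mark at Irx1 and Irx4, and Gm36380 starts just outside that at Irx3.

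Protein-coding neighbours carried the mark about as often as protein-coding genes in general. Of the nearest 5 on each side of each cluster 6 of 20 were marked, 3 around each cluster, a share close to the 26.1% of all protein-coding genes. These were Ube2ql1, Adamts16 and the dopamine transporter gene Slc6a3 around Irx1-Irx2-Irx4, and Mmp2, Lpcat2 and the noradrenaline transporter gene Slc6a2 around Irx3-Irx5-Irx6. Coverage of their bodies was at most 15.8% in common, at Ube2ql1. Fto, an RNA demethylase gene that neighbours Irx3 and whose introns are known to carry enhancers of the cluster, had no peak in either replicate over its 355 kb, as did 27.6% of the 2489 protein-coding genes of at least 100 kb. Ndufs6, which encodes a subunit of mitochondrial complex I and is the first gene beyond Irx4, also had none.

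Among other homeobox genes of the TALE class, 6 of 12 were marked, against 26.1% of all protein-coding genes, with a median of 1611 bp in common within 5 kb. The 3 with the highest rank of signal, averaged over the replicates, were, with the highest signal within 1 kb in replicates 1 and 2, Pknox2 (11.2 and 10.7), Mkx (10.5 and 11.0) and Meis2 (8.49 and 9.25). Pbx2, a partner of homeodomain factors, had no peak within 1 kb, and Pbx4 had one in replicate 2 alone. The Iroquois genes were thus covered more widely than most of their class: none of the 12 exceeded 8240 bp, a value that 5 of the 6 members passed.

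Most genes in 3 lists that act beside Iroquois genes in the embryo were marked, against 26.1% of all protein-coding genes. Of the factors of neural tube progenitors 8 of 8 were marked, with a median of 9087.5 bp in common within 5 kb. By the rank of signal averaged over the replicates, Pax7 (15.8 and 12.9 in replicates 1 and 2), Dbx1 (15.3 and 12.4) and Olig2 (13.7 and 12.7) led, although Pax6 was higher than these in replicate 2, at 13.0. Of 7 heart factors and genes 5 were marked, with the highest averaged rank at Nkx2-5 (14.8 and 13.0), Hand1 (13.97 and 13.6) and Tbx5 (13.6 and 13.5), while the connexin genes Gja1 and Gja5 had no peak. Hand2 had the highest signal of this list in replicate 2, at 14.5, against 11.0 in replicate 1. Kcnd2, named above with Irx5, was marked with signal of 6.58 and 7.81. Of 8 limb patterning genes 7 were marked, led on average by Pitx1 (17.4 and 13.2), Fgf8 (13.97 and 14.2) and Tbx5, and Fgf10 had no peak. Tbx5 and Hand2 stand in both the heart and the limb list.

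The labelled cell type was checked by the mark alone, since expression was not measured. Of 7 pluripotency factors 1 was marked, a share not far from the 26.1% of all protein-coding genes, namely Esrrb with signal of 4.38 and 5.49, and Pou5f1, Nanog, Sox2, Zfp42, Klf4 and Dppa5a were without a peak there in both. Of 6 genes of feeder fibroblasts 4 were marked, and Col3a1 and Acta2 had no peak. Lists this short do not settle the cell type.

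Peaks of the clusters that both replicates had were in the median higher and longer than those of 1 replicate alone. In the Irx1-Irx2-Irx4 cluster 55 of the 72 replicate 1 peaks (76.4%) met one of replicate 2 in at least 1 bp, and 64 of the 109 replicate 2 peaks (58.7%) met one of replicate 1. In the Irx3-Irx5-Irx6 cluster these were 42 of 53 (79.2%) and 49 of 112 (43.8%), against 73.6% and 53.7% of all peaks. Those shared in the Irx1-Irx2-Irx4 cluster had a median signal of 5.34 and a median length of 715 bp in replicate 1, and 5.45 and 660.5 bp in replicate 2, against 3.76 and 347 bp and 3.76 and 320 bp for those of a single replicate. In the Irx3-Irx5-Irx6 cluster the shared peaks had 4.38 and 674 bp in replicate 1 and 4.63 and 446 bp in replicate 2, against 3.89 and 418 bp and 3.76 and 276 bp. A long peak has more room to overlap, so length and overlap are not separate facts. The whole lists had 63651 peaks (53.6 Mb) for replicate 1 and 98582 peaks (58.4 Mb) for replicate 2, and the number of reads behind them is unknown, so a stretch without a peak can also be one with too few reads.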

How the data were processed

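H3K27me3 ChIP-seq peak lists of 2 biological replicates of E14TG2a.4 were read as deposited, on build mm10 (GRCm38). Per the file headers, the main list of each replicate (pseudoreplicated peaks) came from that replicate's alignment in a second processing run; a first run gave relaxed lists, and each run gave a replicated list of both samples. The sources used here do not give aligner, peak caller, thresholds or the use of a control, and no control sample was analysed here. The signal of each peak is the authors' value, with a scaling that is not given; the −log10 p and −log10 q are also as deposited, and only −log10 q was used, as a filter. The lists of both libraries called together and a list on build mm9 were not used.

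Genes came from GENCODE M21. Covered bases, domains, deserts and CpG islands (at least 500 bp, 55% G and C, CpG ratio 0.65) were computed with Python 3.11.15 and NumPy 2.4.6 over the 19 autosomes and the X chromosome, figures with Matplotlib 3.10.9, and the interval arithmetic was tested on simulated data. Genes named beside the members were the nearest 5 on each side, the non-coding genes within 5 kb of a start, the most alike gene, and from each list up to 3 marked genes by rank of signal and up to 2 without a peak. Fto, Ndufs6, Kcnd2, Pbx4, Pax6, Hand2 and the remaining pluripotency factors were named by position or after their values were seen, as were single non-coding genes in domains. A gene that the rule takes is not reported here. Members and lists were chosen with earlier results of these data known. There is 1 group, so no test was made, and depth is unknown.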

Additional observations from a re-analysis of the deposited data

How the results depend on the processing

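The call that all 6 members were marked held under all 12 alternatives run: each replicate alone, −log10 q of at least 2 or 5, relaxed lists, both replicated lists, windows of 0.5, 2.5 and 5 kb, 50% of the window covered, and any transcript start. The share of all protein-coding genes ran from 14% (50% of the window) to 34.2% (replicated list of the first run), against 26.1% in the main setting. A single replicate, a wider window and any transcript start could not have lowered the count. The coverage of clusters and deserts depends on the list. For the Irx1-Irx2-Irx4 cluster the 4.54% in common became 5.56% to 6.14% with 1 replicate left out, 3.98% at −log10 q of at least 5, 5.55% in the relaxed lists, and 7.87% and 8.58% in the replicated lists of the second and first run. For the Irx3-Irx5-Irx6 cluster the 5.07% became 6.48% to 7.48%, 4.33%, 7.61%, 10.6% and 13.4% under the same settings. For the deserts of the Irx1-Irx2-Irx4 cluster the 3.22% became 4.18% to 4.83%, 2.65%, 4.22%, 6.53% and 7.26%, and 1.23% without the 10 kb next to each gene. For those of the Irx3-Irx5-Irx6 cluster the 2.78% became 4.04% to 5.16% with 1 replicate left out (5.16% without replicate 1), 2.12% at −log10 q of at least 5, 5.18% in the relaxed lists, 8.05% and 10.9% in the replicated lists, and 1.46% without the 10 kb next to each gene. The genome's own coverage moved with the list, and the ratio of cluster to genome stayed between 2.35 and 3.12 for Irx1-Irx2-Irx4 and between 3.09 and 3.66 for Irx3-Irx5-Irx6. For the deserts it stayed between 1.96 and 2.12 for Irx1-Irx2-Irx4, whereas for Irx3-Irx5-Irx6 it moved between 1.66 at −log10 q of at least 5 and 3.00 in the replicated list of the first run, from 1.82 in common bases. These ranges do not include the setting that leaves out the 10 kb next to each gene. There the deserts, at 1.23% and 1.46% in common bases, lay below the 1.53% of the genome, which includes genes and their starts. They lay above the upper quartile of the stretches of at least 100 kb between protein-coding genes, 0.899%. Those stretches were not trimmed next to genes. Replicate 1 or 2 alone counts bases that the other lacks, so these values exceed the common ones by construction.

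Covered bases within 5 kb ran from 4958 to 9682 bp and gene bodies from 57.9% to 99.9% over 42 values each, all members pooled. Of the 42 values within 5 kb, 28 were above the gene's main value, 4 below and 10 equal. For bodies these were 28, 2 and 12. At −log10 q of at least 5, Irx6 fell from 8496 to 7465 bp, below Irx2 at 8316 bp. At that setting the covered body of Irx3 fell from 83.5% to 74.5%. Member domains ran from 11.1 to 29.1 kb when joined within 5 kb. At an overlap of 50% of each peak, 42 peaks of each replicate were shared in the Irx1-Irx2-Irx4 cluster and 25 in the Irx3-Irx5-Irx6 cluster. No paired analysis was possible because there is 1 group. A precision from read depth cannot be given, since depth is unknown.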
